A study of Mus musculus with 172 samples.

Results

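The 24 histone genes described here were those whose symbol in the expression lists of cortex or liver began with Hist1h to Hist4h, H2af, H3f3 or H1f, out of 16308 genes listed in at least 1 of the tissues. Within these lists the choice went by name, with earlier results of these data known. The authors had removed genes of low mean count, so being listed depended on measured reads. Of these genes, 13 carried a Hist symbol and are called clustered here, and 11 were variant histone genes. Each tissue listed 22 of them and 20 were listed in both. H2afy3 and Hist3h2ba were listed in cortex alone, and Hist1h1d and Hist1h4h in liver alone.

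Male mice of the BXD panel, recombinant inbred lines derived from the strains C57BL/6J and DBA/2J, were either left undisturbed (Ctr) or kept awake by gentle handling for 6 h from lights on (SD), and tissue was taken at the end of those 6 h (ZT6). RNA of several mice was pooled per line and condition, and each pool gave 1 library of cerebral cortex and 1 of liver. Per tissue and condition, the main comparison held 39 pools: 33 BXD/RwwJ lines, 4 parental pools (2 of C57BL/6J and 2 of DBA/2J) and 2 pools of the reciprocal F1 crosses. Each pair of a Ctr and an SD pool is counted below as a line, so each parental strain counts as 2 of the 39. The 4 BXD/TyJ lines (05, 29, 29t and 32) were kept apart, of which 29 and 29t share a line number. The loss of sleep was the intervention compared, no histone gene was altered by the study, and a pool averages its mice.

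Histones package DNA into nucleosomes, whose core holds H2A, H2B, H3 and H4, while the linker histone H1 binds between cores. The clustered genes lie in a few gene clusters and are classically transcribed in S phase, when a dividing cell must wrap newly made DNA. Their mRNAs are known for ending in a short stem-loop in place of a poly(A) tail, although polyadenylated forms are also made, among others in cells that have left the cell cycle. Variant or replacement histones such as H3.3, H2A.Z and macroH2A are encoded by dispersed genes with ordinary poly(A) tails and are made throughout the cell cycle. Most neurons and hepatocytes of an adult mouse do not divide.

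The stem-loop is printed here because it separates the classes in sequence and because the libraries were made from poly(A) RNA. A 16-base stem-loop with 6-base stems was found within 150 bases after the stop codon, or in the exons and the 100 bases after them where the annotation gave no coding sequence, in 12 of the 13 clustered genes and in 1 of the 11 variants (GENCODE annotation of mm9). The stems are in capitals and the loop is in lower case, 5′ to 3′ on the strand of the gene.
Hist1h1c, Hist1h1d, Hist1h1e, Hist1h2ac, Hist1h2bc, Hist1h2be, Hist2h3c1, Hist2h3c2, Hist3h2a and Hist3h2ba: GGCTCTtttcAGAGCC
Hist1h4h: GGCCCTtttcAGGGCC
Hist1h4i: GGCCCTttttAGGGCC
H2afx: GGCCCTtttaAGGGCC
In Hist1h1e (chr13:23713624-23714371, minus strand) the stem-loop lay at chr13:23713651-23713666, 40 bases after the stop codon, and the annotated transcript ended 83 bases after the stop codon. H2afx (chr9:44142798-44144154, plus strand), the variant that carried a stem-loop, had it 46 bases after the stop codon, whereas its annotated transcript ran on for 878 bases. Hist2h2be (chr3:96025044-96027661) was the clustered gene without a match, and its annotated transcript ran 2192 bases past the stop codon. Among the protein-coding clustered genes of the annotation, 12 of 67 were listed in a tissue. An annotated end more than 150 bases past the stop codon was found in 10 of these 12 and in 12 of the 55 others. The exceptions among the listed genes were Hist1h1e and Hist1h4h, whose transcripts ended 83 and 93 bases past it. Hist2h3c2, H1f0 and H2afy3 carry no coding sequence in this annotation, which classes them as pseudogenes.

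Members also differed in how much of their sequence a 100-base read can place. At least 90% of the 100-base stretches of the exons occurred once in the genome for 8 of 13 clustered and 9 of 11 variant genes. The lowest shares were 37.8% for Hist2h3c2, 47.0% for Hist2h3c1 and 50.4% for Hist1h2bc, followed by 61.5% for Hist1h4h, 73.8% for H2afz, 78.3% for Hist1h4i and 81.6% for H3f3a. Counts of these 7 genes are uncertain, since reads of near-identical copies may be lost or assigned to a neighbour.

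The promoters of Hist1h1e and Hist1h1c, 2 linker histone genes of the chromosome 13 cluster that differed in their response, are shown from 250 bases before to 50 bases after the RefSeq start (GRCm38.p6). The capitals mark CCAAT boxes, the TATA motif TATAAA and the H1 element AAACACA.
Hist1h1e, chr13:23622509-23622808, minus strand: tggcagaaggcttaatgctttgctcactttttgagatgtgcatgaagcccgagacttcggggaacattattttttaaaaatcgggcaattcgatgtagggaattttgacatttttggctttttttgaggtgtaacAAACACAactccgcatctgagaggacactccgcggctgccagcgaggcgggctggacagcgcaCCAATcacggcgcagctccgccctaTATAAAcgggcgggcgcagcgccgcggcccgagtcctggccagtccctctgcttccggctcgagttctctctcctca
Hist1h1c, chr13:23738557-23738856, plus strand: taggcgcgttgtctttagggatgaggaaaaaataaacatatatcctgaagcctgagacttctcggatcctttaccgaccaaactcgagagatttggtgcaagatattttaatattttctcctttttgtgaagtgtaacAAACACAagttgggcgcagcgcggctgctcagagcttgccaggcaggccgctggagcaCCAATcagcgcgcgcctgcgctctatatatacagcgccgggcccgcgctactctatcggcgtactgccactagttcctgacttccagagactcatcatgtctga
Both windows held AAACACA, an element known from H1 genes, and CCAAT, whereas TATAAA was found in that of Hist1h1e alone. Only the exact motif was searched, and the Hist1h1c window holds the similar stretch tatatata shortly after CCAAT, left in lower case. With both strands searched, AAACACA was found in 3 of the 11 clustered promoters with a RefSeq window (Hist1h1c, Hist1h1d and Hist1h1e), in 1 of the 9 variant promoters (H3f3a) and in 7.14% of all 27025 promoters. CCAAT was found in 9 of 11 clustered and 6 of 9 variant promoters against 37.9% of all promoters. TATAAA was found in 5 of 11 and 1 of 9 against 14.2%, and ATTTGCAT, the octamer known from H2B promoters, in 3 of 11 and 1 of 9 against 1.75%. These matches describe letters in a window and were not tested as binding sites or for a relation to the response.

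Levels are log2 CPM as deposited, the base-2 logarithm of reads scaled to library size, in which about 1 read is added before the logarithm, so that changes of low genes are understated. A gene with no read stood at -4.51 in cortex Ctr libraries and at -2.77 in liver Ctr libraries. The libraries held 18995492 to 28998853 reads on listed genes in cortex and 4681101 to 8269401 in liver, so a low gene was measured with less precision in liver. In liver, reads per exonic base reached no more than 1.78 in any gene of at least 500 bases (Alb), whereas 418 such genes were above 2 reads per base in cortex and the highest stood at 29.9. Differences among the most densely read liver genes may therefore be compressed. The clustered genes that rose by at least 0.5 in liver were far below that density (0.00105 to 0.0642 reads per base). The Ctr libraries of BXD56 and BXD90 in cortex and the SD library of BXD70 in liver stood farthest from their groups, with root mean square distances over all genes of 0.438, 0.420 and 0.802 against group medians of 0.288 and 0.484. Counts below were also made without these 3 lines. In bulk tissue, fewer cells of a type and less RNA per cell cannot be told apart.

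In cortex, sleep deprivation raised the core histone genes Hist2h3c1, Hist1h2be, Hist2h3c2 and Hist1h4i and the linker histone gene Hist1h1e by 1.90-fold to 2.31-fold. Of the 11 clustered genes listed, 9 rose, Hist3h2ba fell, and Hist1h1c did not pass the test (limma, adjusted p under 0.05 over all 14896 genes). Over all genes, 33% rose and 35.4% fell by the same test. A rise of at least 0.5 on the log2 scale was seen in 5 of the 11 against 3.28% of all genes. These shares hold for listed genes alone, and listing depended on mean reads. The median change of the 11 genes was 0.35 on the log2 scale, whereas that of all genes was -0.0097.

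Hist2h3c1, which encodes an H3 protein of nucleosomes, stood at 0.27, 0.89 and 1.77 log2 CPM (lowest, median and highest of 39 Ctr pools) and at 1.72, 2.16 and 2.64 in SD pools. All but 1 of the 39 SD pools lay above the highest Ctr pool. The change was 1.21 ± 0.065 (SE) on the log2 scale, 2.31-fold, with an adjusted p of 3.85e-29, and it was positive in 39 of 39 lines. The mean number of reads rose from 44.4 to 102.6, but 47.0% of its stretches were unique, and reads of its near-identical neighbour Hist2h3c2 cannot be fully separated. Its model in this annotation (chr3:96049477-96052431, plus strand) also overlaps that of the H2A gene Hist2h2aa1 (chr3:96049461-96050038, plus strand).

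Hist1h2be, an H2B gene of the chromosome 13 cluster (chr13:23675611-23712993, minus strand), stood at -0.98, -0.03 and 0.66 log2 CPM in Ctr and at 0.42, 1.20 and 1.96 in SD pools. It rose by 1.20 ± 0.083 on the log2 scale (adjusted p = 1.23e-22) and was higher in 39 of 39 lines, with 35 SD pools above every Ctr pool. Unlike Hist2h3c1, it had unique sequence in 93.8% of stretches. Hist2h3c1 and Hist1h2be were the 2 of 11 clustered genes with SD above Ctr in every line, against 6.48% of all genes. No clustered gene had every SD pool above every Ctr pool, which held for 1.01% of all genes.

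Hist1h1e, which encodes the linker histone H1.4, stood at -1.61, -0.48 and 0.41 log2 CPM in Ctr pools and at -0.74, 0.72 and 1.47 in SD pools. The groups overlapped in part, since 33 SD pools exceeded the highest Ctr pool. The change of 1.11 ± 0.092 (2.16-fold, adjusted p = 1.14e-18) was positive in 38 of 39 lines, the exception being BXD83 with -0.16. Reads were few, 16.8 on average in Ctr and 37.2 in SD libraries.

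Hist2h3c2 stood at -2.16, -1.02 and -0.18 log2 CPM in Ctr and at -0.74, -0.02 and 0.60 in SD pools, a rise of 1.02 ± 0.11 (adjusted p = 2.08e-13) seen in 38 of 39 lines. Hist1h4i, an H4 gene, stood at -3.46, -0.97 and -0.25 in Ctr and at -0.98, -0.18 and 0.42 in SD pools. Its rise of 0.93 ± 0.12 (1.90-fold, adjusted p = 3.47e-11) was also seen in 38 of 39 lines, at a mean of 10.4 Ctr and 19.9 SD reads. The Ctr and SD pools of both genes overlapped.

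The other 4 clustered genes that rose in cortex did so by 1.18-fold to 1.28-fold. Hist1h2bc, an H2B gene, rose by 0.35 ± 0.062 (adjusted p = 5.77e-07, 36 of 39 lines), Hist3h2a, an H2A gene, by 0.25 ± 0.069 (0.00119, 36 lines), and Hist2h2be, an H2B gene, by 0.23 ± 0.035 (1.12e-08, 37 lines). Hist1h2ac, an H2A gene at 12.3 mean Ctr reads, rose by 0.27 ± 0.10 (adjusted p = 0.0167, 25 of 39 lines), and in the 33 BXD/RwwJ lines alone the change was 0.18 with an adjusted p of 0.159.

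Hist3h2ba moved the other way although it lies next to Hist3h2a on chromosome 11 (chr11:58762413-58763032 and chr11:58768187-58770176, both on the plus strand). This H2B gene stood at 2.89, 3.15 and 3.49 log2 CPM in Ctr and at 2.37, 2.87 and 3.17 in SD pools. It fell by 0.34 on the log2 scale (SE 0.040, adjusted p = 3.77e-12) and was lower in 38 of 39 lines. Hist1h1c, which encodes the linker histone H1.2, stood at 2.53, 3.20 and 3.71 in Ctr and at 2.61, 3.20 and 3.79 in SD pools. Its difference of 0.10 ± 0.067 had an adjusted p of 0.198, and of 0.00768 with the line as a replicate block, a pairing under which it counted among the genes that rose.

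**Figure D1:**
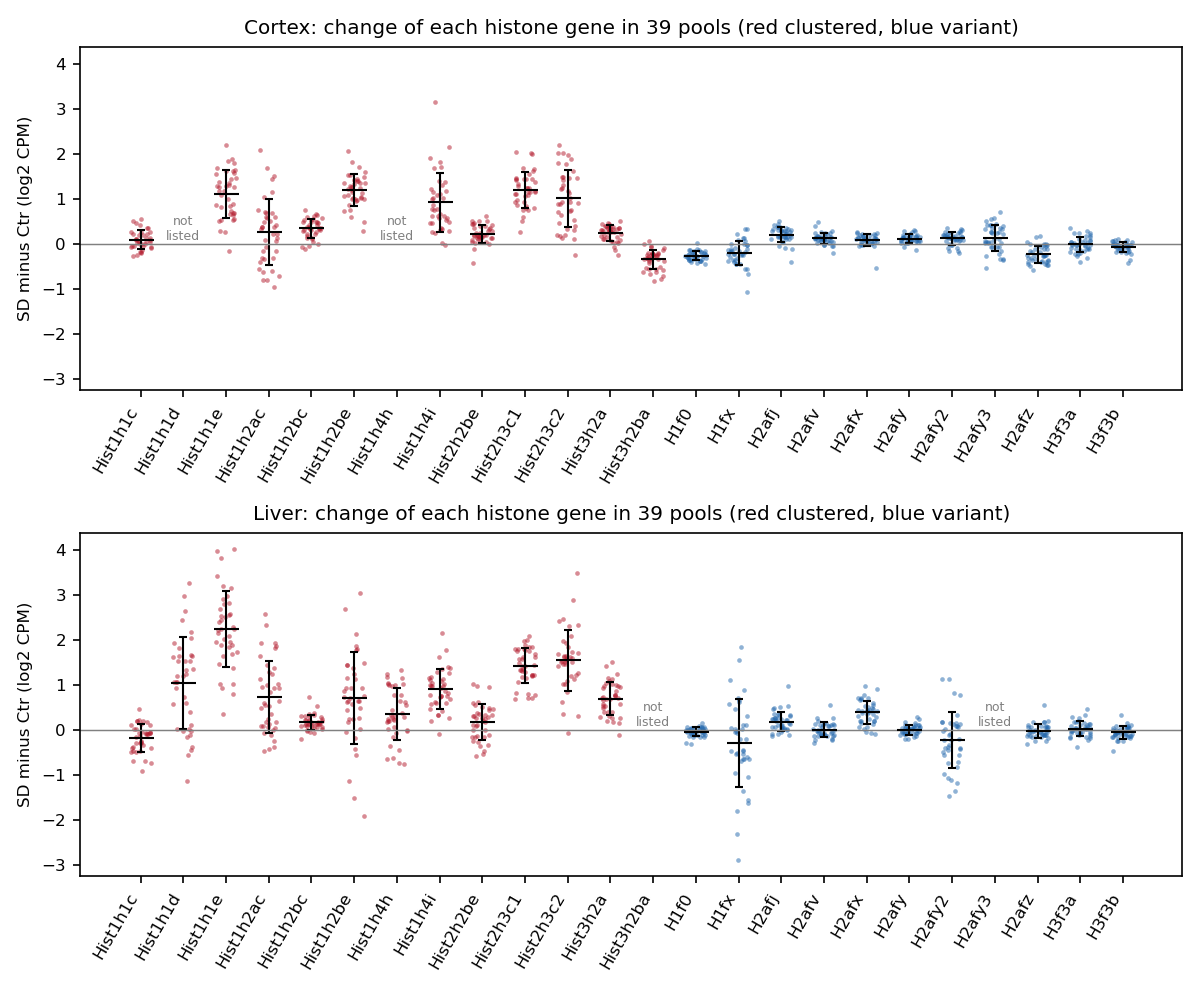
Change of each histone gene (SD minus Ctr, log2 CPM) in each of 39 pools, in cortex and in liver. Each point is a pool and black marks give the mean ± SD. The clustered genes Hist1h1e, Hist2h3c1 and Hist2h3c2 lie well above 0 in both tissues, with mean changes of 1.11, 1.21 and 1.02 in cortex and 2.25, 1.43 and 1.56 in liver, whereas the variant genes lie between -0.25 and 0.21 in cortex and between -0.28 (H1fx) and 0.39 (H2afx) in liver.

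The variant histones of cortex changed in both directions, none by 0.5 or more on the log2 scale. Of the 11 genes, 6 rose, 4 fell and H3f3a did not pass the test, where 33% of all genes rose and 35.4% fell, and the changes lay between -0.25 and 0.21. The genes that rose were H2afj (0.21), H2afy3 (0.14), H2afv (0.13), H2afy2 (0.13), H2afy (0.12) and H2afx (0.09). H2afy and H2afy2 encode macroH2A, a large H2A variant associated with silent chromatin, and H2afx encodes H2A.X, which is phosphorylated around DNA breaks. H2afy, the most read of these, stood at 5.87, 5.98 and 6.29 log2 CPM in Ctr and at 5.99, 6.13 and 6.27 in SD pools (0.12 ± 0.019, adjusted p = 1.48e-08, 37 of 39 lines).

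H1f0, which encodes H1.0, the linker histone typical of cells that have stopped dividing, fell in 38 of 39 lines. It stood at 6.53, 6.64 and 6.80 log2 CPM in Ctr and at 6.23, 6.39 and 6.56 in SD pools, so the groups barely overlapped. It fell by 0.25 on the log2 scale (SE 0.016, adjusted p = 2.40e-25). H2afz, which encodes H2A.Z, fell by 0.22 (SE 0.040, adjusted p = 8.54e-07, 33 of 39 lines), and H1fx by 0.19 (SE 0.049, adjusted p = 4.07e-04, 31 lines). H3f3b, which encodes H3.3, fell by 0.06 (SE 0.021, adjusted p = 0.00927, 28 lines), whereas H3f3a, the other H3.3 gene, stood at a median of 4.07 in both conditions with a difference of -0.0040 ± 0.032 (adjusted p = 0.921). The pools of BXD90 gave the lowest change of 6 of the 11 variants, and without BXD56, BXD70 and BXD90 the counts remained 6 up and 4 down.

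In liver most clustered genes rose as well, led by Hist1h1e at 4.76-fold. Of the 12 clustered genes listed, 10 rose, Hist1h1c fell and Hist2h2be did not pass the test, whereas 21.5% of all 14107 genes rose and 22.6% fell. A rise of at least 0.5 was seen in 8 of 12 against 2.55% of all genes, and the median change was 0.73 against -0.0015 over all genes. Reads were few for many of these genes: 6 of the 12 had a mean of fewer than 10 reads in Ctr libraries, and 4 of the 6 others rose. Listing depended on mean reads, so a low gene that rises in SD may be listed more easily. The 55 unlisted protein-coding clustered genes could not be counted, so these shares hold for listed genes alone. Of the genes that rose by at least 0.5, Hist2h3c1, Hist1h4i and Hist3h2a had at least 10 Ctr reads on average.

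Hist1h1e stood at -2.77, -0.06 and 0.90 log2 CPM in liver Ctr pools, the lowest being a library with no read, and at -0.12, 2.17 and 3.38 in SD pools. It was higher in 39 of 39 lines, from 0.37 in BXD55 to 4.03 in BXD84, and 36 SD pools exceeded every Ctr pool. The change was 2.25 ± 0.17 on the log2 scale (adjusted p = 4.19e-20), at a mean of 5.44 Ctr and 29.5 SD reads. With a prior count of 5 reads in place of about 1 the change was 1.66 and with voom weights 2.41.

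Hist2h3c1 stood at 1.65, 2.73 and 3.55 log2 CPM in Ctr and at 2.87, 4.20 and 4.89 in SD pools. It rose 2.69-fold (1.43 ± 0.092, adjusted p = 2.31e-23) in 39 of 39 lines, from 45.4 to 122.7 mean reads, and 37 SD pools exceeded the highest Ctr pool. With Hist1h1e it was 1 of 2 clustered genes higher in every line, against 1.02% of all genes, and none of the 12 had groups free of overlap, against 0.0567% of all genes. Hist2h3c2 stood at -2.77, 0.38 and 1.38 in Ctr and at 0.47, 1.80 and 2.98 in SD pools and rose by 1.56 ± 0.15 (2.94-fold, adjusted p = 1.09e-14, 38 of 39 lines). Both H3 genes share much of their sequence, so these rises may not be independent of each other, which was not tested.

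The next largest changes were those of Hist1h1d and Hist1h4i. Hist1h1d, which encodes the linker histone H1.3, stood at -2.77, -1.23 and 0.41 in Ctr and at -1.78, -0.55 and 2.05 in SD pools. No read was found in 7 Ctr libraries and the mean was 2.15 Ctr and 5.87 SD reads, so its rise of 1.04 ± 0.19 (adjusted p = 4.78e-06, 31 of 39 lines) rests on very few reads. It fell to 0.51 with a prior count of 5. Hist1h4i stood at -0.49, 1.85 and 2.82 in Ctr and at 1.20, 2.88 and 3.56 in SD pools and rose by 0.91 ± 0.15 (adjusted p = 6.41e-07, 38 lines). The wide overlap of its groups contrasted with the near uniform direction within lines.

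Hist3h2a, with 100% of its stretches unique, stood at 1.79, 2.47 and 3.27 in Ctr and at 2.52, 3.16 and 4.11 in SD pools. It rose by 0.70 ± 0.095 (1.63-fold, adjusted p = 1.76e-09) in 38 of 39 lines, from 39.2 to 63.7 mean reads. Rises were also called for Hist1h2ac (0.74 ± 0.14, adjusted p = 9.76e-06, 33 lines, 5.33 Ctr reads), Hist1h2be (0.72 ± 0.16, 1.19e-04, 32 lines, 2.23 Ctr reads) and Hist1h4h (0.36 ± 0.11, 0.00439, 30 lines, 9.72 Ctr reads). With a prior count of 5 the change of Hist1h2ac was 0.47 and that of Hist1h2be 0.36. Hist1h2bc, the clustered gene of liver with the highest level per length, rose by 0.18 ± 0.038 (adjusted p = 5.07e-05, 35 lines).

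Hist1h1c and Hist2h2be did not share this rise. Hist1h1c stood at 5.27, 5.72 and 6.24 log2 CPM in Ctr and at 4.62, 5.57 and 6.34 in SD pools, a fall of 0.17 (SE 0.073) with an adjusted p of 0.0489 and a lower value in 28 of 39 lines. Under the replicate block for lines it was 0.0017, and in 4 alternatives the call was lost, with adjusted p up to 0.0788. Hist2h2be stood at medians of 3.04 and 3.13 with a difference of 0.18 ± 0.085 and an adjusted p of 0.0770, and of 0.0156 with the replicate block.

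**Figure D2:**
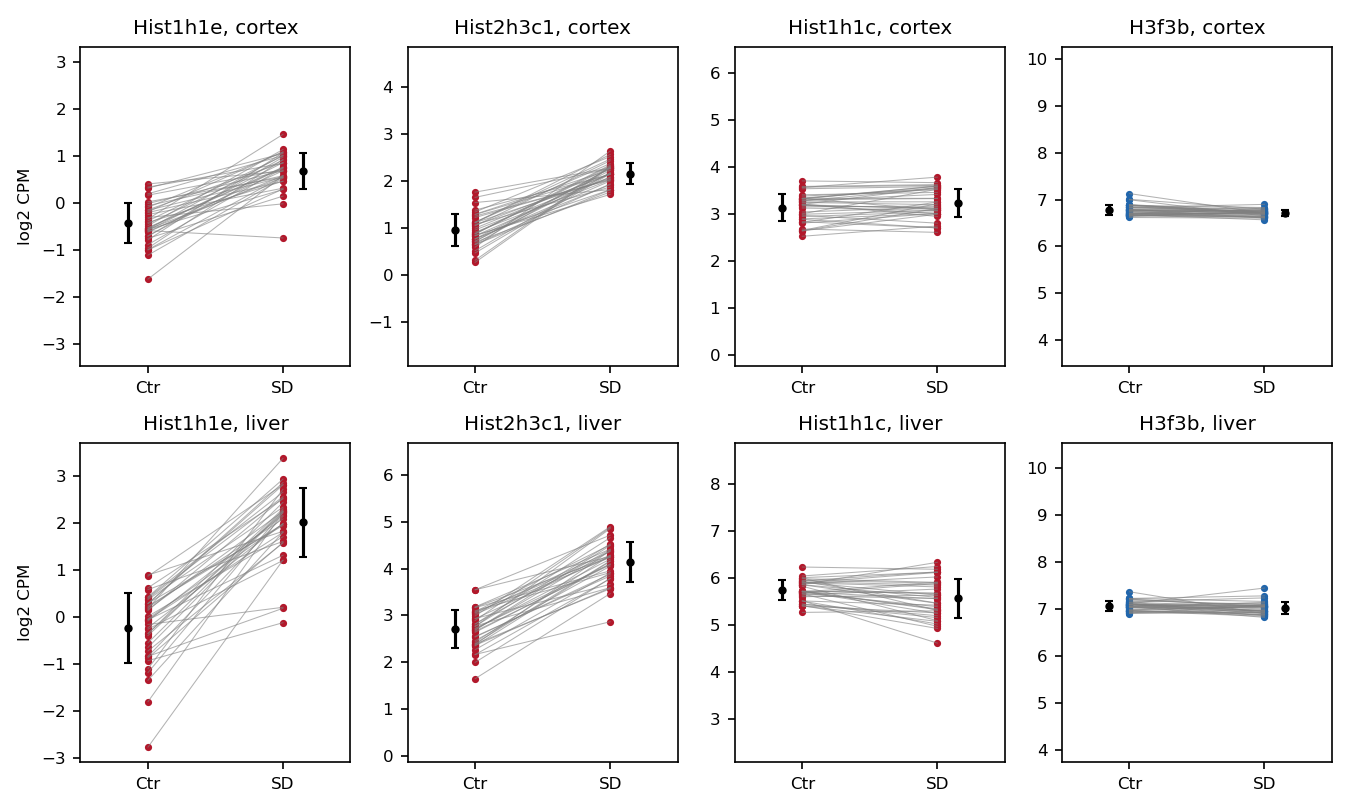
Levels (log2 CPM) of Hist1h1e, Hist2h3c1, Hist1h1c and H3f3b in Ctr and SD pools of cortex and liver. Lines join the 2 pools of each of 39 lines and black marks give the mean ± SD. Hist2h3c1 rose in 39 of 39 lines in both tissues, whereas Hist1h1c and H3f3b moved little.

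Of the 10 variant genes listed in liver, 2 rose and 8 did not pass the test, with a median change of -0.0038. The share that rose, 2 of 10, was near the 21.5% of all liver genes. By limma none fell, with or without voom weights, and at an unadjusted p under 0.05 there were 1 (H2afy2) without and 2 (H2afy2 and H3f3b) with the weights. H2afx stood at 3.71, 4.12 and 4.57 log2 CPM in Ctr and at 4.07, 4.49 and 5.00 in SD pools. It rose by 0.39 ± 0.048 (1.31-fold, adjusted p = 7.09e-11) in 36 of 39 lines. H2afj, an H2A variant, rose by 0.19 ± 0.038 (adjusted p = 1.26e-05, 34 lines). With the line as a replicate block H3f3b fell (-0.05, adjusted p = 0.0482 against 0.109 without it).

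The most read variants of liver differed little between conditions. H2afy stood at medians of 7.26 and 7.27, H3f3b at 7.07 and 7.03, H1f0 at 7.03 and 7.01, H2afv at 5.87 and 5.84, and H2afz at 5.87 and 5.84 log2 CPM. Their reads per exonic base were 0.151, 0.296, 1.63, 0.242 and 0.218, against the highest value of 1.78 in liver, where the value of H1f0 rests on an annotated model of 534 bases that may be shorter than the one counted on. The part of read density in these small changes was not tested. H1fx varied widely among liver pools, from -2.77 to 3.06 in Ctr and from -2.75 to 2.78 in SD, and its difference of -0.28 ± 0.30 had an adjusted p of 0.485.

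Averaged over the listed clustered genes of each pool, the change was above 0 in 39 of 39 lines in both tissues. It ran from 0.0926 in BXD89 to 0.936 in BXD103 in cortex, with a median of 0.589. In liver it ran from 0.307 in 1 of the F1 pools to 1.28 in BXD61, with a median of 0.851. The same mean over the variants was above 0 in 25 of 39 lines in cortex and in 18 of 39 in liver. Its extremes were -0.35 in BXD90 in cortex and 0.449 in BXD70 in liver, 2 of the 3 lines whose libraries stood apart.

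The BXD/TyJ lines, which were not part of these tests, gave 4 further changes per gene. All 4 were positive for 6 of the 9 clustered genes that rose in cortex (Hist1h1e, Hist1h2be, Hist1h4i, Hist2h3c1, Hist2h3c2 and Hist3h2a) and for 6 of the 10 in liver (Hist1h1d, Hist1h1e, Hist1h2be, Hist1h4i, Hist2h3c1 and Hist2h3c2). The share of all genes with 4 positive changes was not counted, so these counts describe the members alone. Hist2h3c1 changed by 0.92, 1.40, 1.30 and 1.27 in cortex and by 1.48, 1.87, 1.65 and 1.41 in liver in BXD05, BXD29, BXD29t and BXD32. Hist3h2ba was lower in all 4 in cortex, with changes from -0.94 to -0.38, and H1f0 as well, from -0.47 to -0.33. Hist1h1c was lower in cortex in all 4 too, with changes from -0.68 to -0.01.

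The response differed between the tissues in 14 of the 20 genes listed in both, by limma on the within-line difference of both changes (liver minus cortex). It was higher in liver for 8 and lower for 6, against 28% and 29.6% of all 12695 genes listed in both tissues, so the counts lie near those of all genes. Among the 10 clustered genes 5 were higher and 3 lower, and among the 10 variants 3 and 3. Levels were not compared between tissues, which the authors normalized separately and whose RNA was extracted with different kits.

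Hist1h1e showed the largest difference, 1.14 ± 0.15 on the log2 scale (adjusted p = 1.47e-08), and its change was larger in liver in 37 of 39 lines. With a prior count of 5 the difference was 0.71. Hist2h3c2 (0.54 ± 0.16, adjusted p = 0.00316) and Hist3h2a (0.46 ± 0.062, 2.68e-08, 33 lines) also rose more in liver. Hist1h2be rose less in liver (-0.48 ± 0.18, adjusted p = 0.0205), at 2.23 mean Ctr reads there against 22.1 in cortex. In the 33 BXD/RwwJ lines its difference had an adjusted p of 0.0712.

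Hist1h2ac (0.47 ± 0.19, adjusted p = 0.0301) and Hist2h3c1 (0.22 ± 0.084, adjusted p = 0.0253) were called as larger in liver, but the first had an adjusted p of 0.0707 with a prior count of 5 and the second of 0.106 where the lines were not paired. Hist1h1c differed by -0.27 ± 0.055 (adjusted p = 5.09e-05), being 0.10 in cortex and -0.17 in liver. Hist1h2bc rose less in liver (-0.17 ± 0.040, adjusted p = 2.47e-04), where its density was 0.409 reads per base, the highest of the clustered genes. Among the variants, H2afx rose more in liver (0.30 ± 0.049, adjusted p = 8.64e-07, 31 of 39 lines), and H1f0 and H2afz, which fell in cortex and stood near 0 in liver (-0.03 and -0.02, neither called), differed by 0.22 ± 0.023 and 0.21 ± 0.043. For Hist1h4i the difference was -0.02 ± 0.11 (adjusted p = 0.905) and for H3f3b 0.0091 ± 0.031 (0.817).

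**Figure D3:**
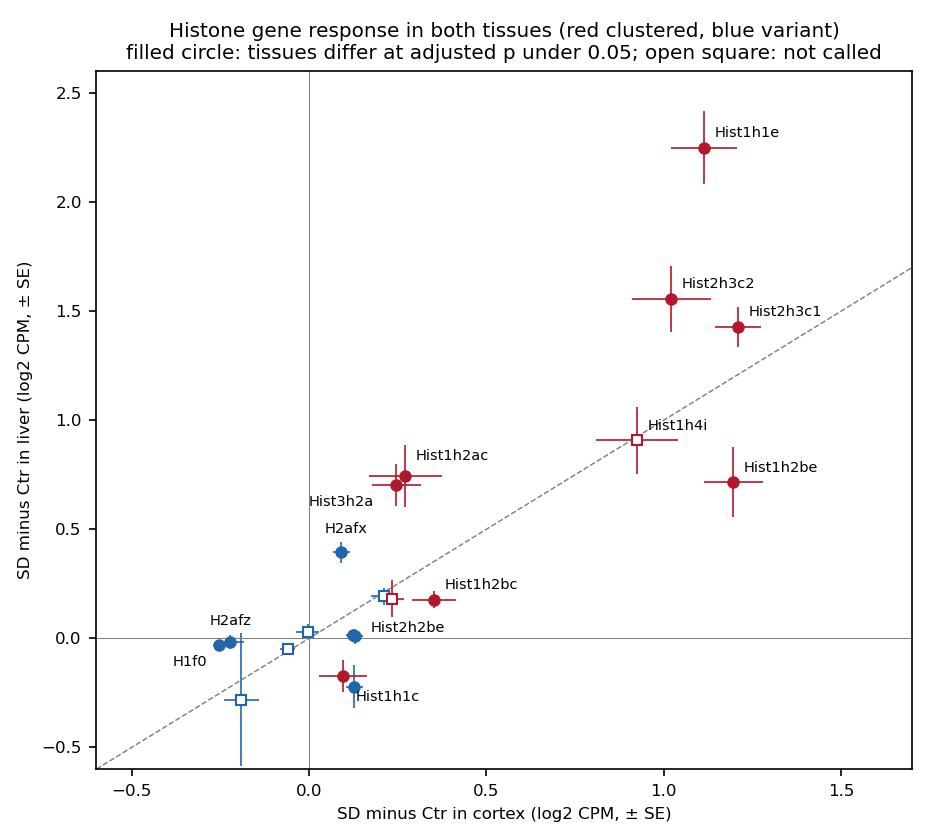
Change of the 20 shared histone genes in cortex (x axis) and in liver (y axis), in log2 CPM ± SE, over 39 lines. Filled points are the 14 genes whose change differed between the tissues. Hist1h1e lies farthest above the diagonal, with 1.11 in cortex and 2.25 in liver.

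Levels of some histone genes differed between lines in a way that returned in the other pool of the same line. The level in Ctr pools was correlated with that in SD pools over 39 lines for each of 22 genes in 2 tissues, 44 relations in all, with permutation p-values adjusted over the 44. The relation was positive and past the threshold in 18, namely 4 clustered and 3 variant genes in cortex and 7 and 4 in liver, by Pearson's r and by Spearman's rho. The count includes Hist3h2a in cortex, whose SD levels fell into separate sets as described further on. An r at least as high as the lowest of these (0.39) was found in 7 of 22 histone genes in cortex against 42% of all genes, and in 11 of 22 in liver against 44%. The median r was 0.23 for clustered and 0.26 for variant genes in cortex, against 0.33 over all genes. In liver it was 0.47 and 0.31 against 0.35. Among the genes that rose by at least 0.5 in cortex, r ran from 0.05 for Hist2h3c1 to 0.55 for Hist1h2be.

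Hist1h1c had r = 0.76 and rho = 0.79 in cortex (0.74 without the 2 pools farthest from the median) and r = 0.69 and rho = 0.70 in liver, each with a permutation p of 1e-05, the smallest possible with 100000 resamples, and an adjusted p of 7.33e-05. Its Ctr level in cortex was also related to that in liver, with r = 0.69, rho = 0.73 and an adjusted permutation p of 1e-04 over 20 genes. The parental pools lay apart, at 3.56 and 3.71 log2 CPM in C57BL/6J and 2.68 and 2.89 in DBA/2J cortex, and at 5.99 and 6.05 against 5.41 and 5.45 in liver. With 2 pools per strain no test was made of the parents.

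Hist1h4i in liver gave r = 0.79 and rho = 0.79 (0.77 without 2 pools, adjusted permutation p = 7.33e-05), with Ctr levels of 1.14 and 0.99 in C57BL/6J and 2.15 and 1.64 in DBA/2J. Between cortex and liver its Ctr levels gave r = 0.48 and rho = 0.52 (adjusted permutation p = 0.0216 and 0.00693). Hist1h2bc gave r = 0.71 and rho = 0.75 in cortex and 0.51 and 0.53 in liver (adjusted permutation p = 7.33e-05 and 0.00324 for r). In cortex its Ctr level was 3.65 and 3.53 in C57BL/6J against 2.94 and 2.77 in DBA/2J.

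Hist3h2a in cortex fell into separate sets of pools by its SD level, so no pooled correlation is given. Its SD levels left a gap between 4.44 and 4.64 log2 CPM, with 25 pools below, among them both DBA/2J pools, and 14 above, among them both C57BL/6J and both F1 pools. In Ctr the sets overlapped slightly, with a highest level of 4.193 in the lower set and a lowest level of 4.186 in the upper set. Ctr levels were 4.79 and 4.71 in C57BL/6J, 3.81 and 3.94 in DBA/2J and 4.21 and 4.20 in the F1 pools. Ctr and SD levels in cortex gave r = -0.0060 within the lower set and 0.86 within the upper set. Ctr levels of cortex and liver gave r = -0.044 and 0.66 within them. The sets were seen in the levels themselves, so no test was made within them. Cutting by the SD level narrows the range within a set, so the low r of the lower set does not show that its levels fail to return. Reads of all lines were mapped to a genome of C57BL/6J origin, and the part of DBA/2J sequence differences in these levels was not tested.

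**Figure D4:**
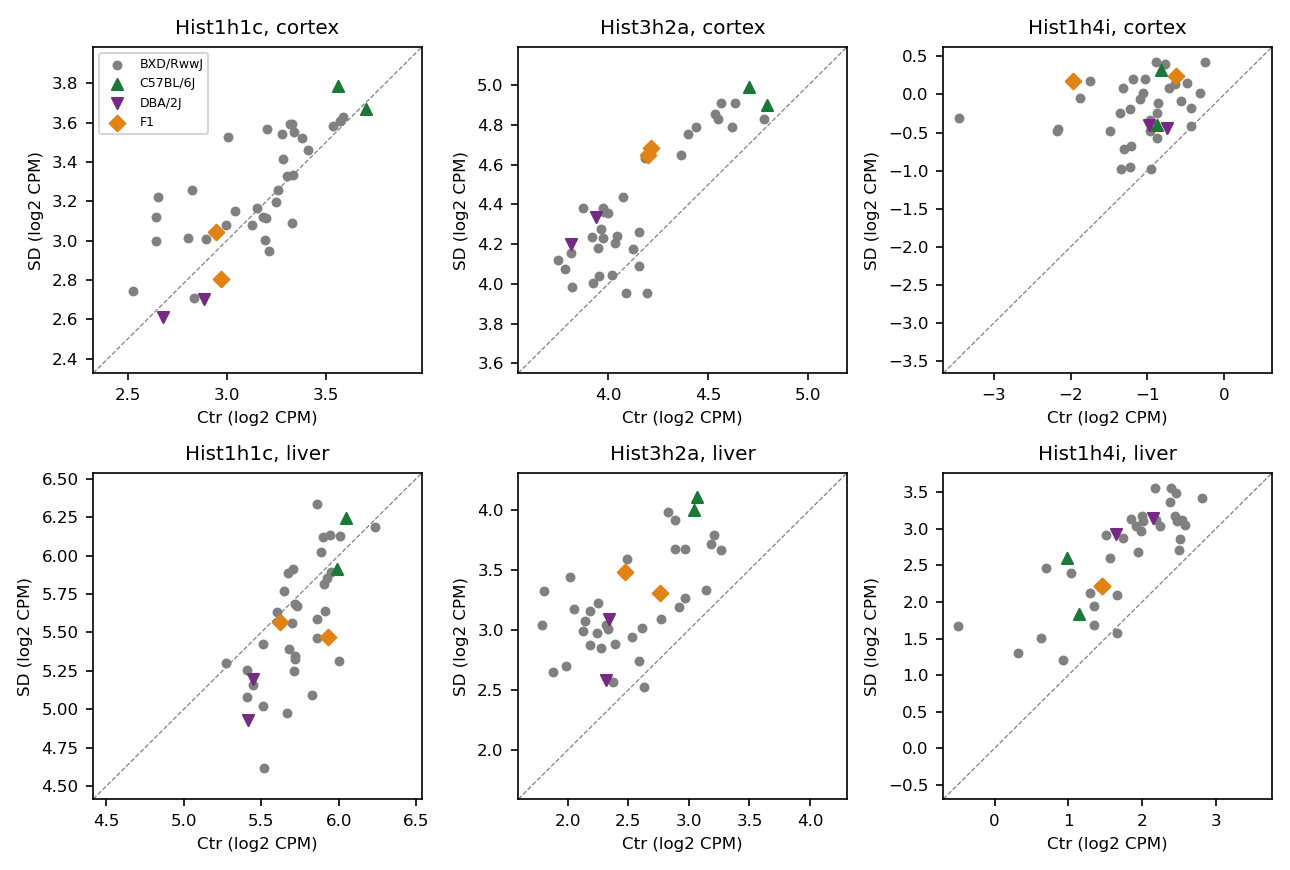
Ctr level (x axis) against SD level (y axis), in log2 CPM, of Hist1h1c, Hist3h2a and Hist1h4i in cortex and liver, 39 pools each, with the parental and F1 pools marked. The C57BL/6J pools lie toward the upper end for Hist1h1c and Hist3h2a in cortex (3.56 and 3.71, 4.79 and 4.71 in Ctr) and the DBA/2J pools toward the lower end.

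Co-variation of the changes over the 39 lines was described within and between the classes. Genes of a pair are read in the same libraries and so share any error of a library. In cortex, the median r over the 55 pairs of clustered genes was 0.24 with 48 positive, and over the 55 pairs of variants 0.20 with 44 positive, whereas the median over all pairs of genes was -0.0007. In liver the medians were 0.073 for 66 clustered pairs, of which 46 were positive, and 0.35 for 45 variant pairs, of which 36 were positive. Between a clustered and a variant gene the median r was 0.071 in cortex (77 of 121 pairs positive) and -0.0070 in liver (59 of 120), the latter near that of all pairs (-0.0021). Without BXD56, BXD70 and BXD90 the medians for variants were 0.031 in cortex and 0.27 in liver, and those for clustered genes 0.24 and 0.076. The co-variation of the cortex variants therefore rested on these lines. Hist1h2bc, although a clustered gene, changed with the variants in liver: its median r with the 10 variants was 0.60, and 0.37 without the 3 lines.

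Of 4 pairs examined in both tissues, 2 passed the test in liver and none in cortex. The H3.3 genes H3f3a and H3f3b changed together in liver (r = 0.85, rho = 0.78, adjusted permutation p = 8e-05 over 8 relations, r = 0.75 without 2 pools). In cortex the same pair gave r = 0.20 (adjusted permutation p = 0.256). H2afz and H2afv, which encode the H2A.Z proteins, gave r = 0.65 and rho = 0.49 in liver (adjusted permutation p = 8e-05 and 0.00764, r = 0.44 without 2 pools) and r = -0.04 in cortex (0.821). Hist1h2bc and Hist2h2be gave r = -0.37 in liver with an adjusted permutation p of 0.0521 (rho = -0.45, 0.0107), and r = 0.26 in cortex (0.146). Hist1h1c and Hist1h2bc gave r = 0.29 in both tissues (adjusted permutation p = 0.127).

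**Figure D5:**
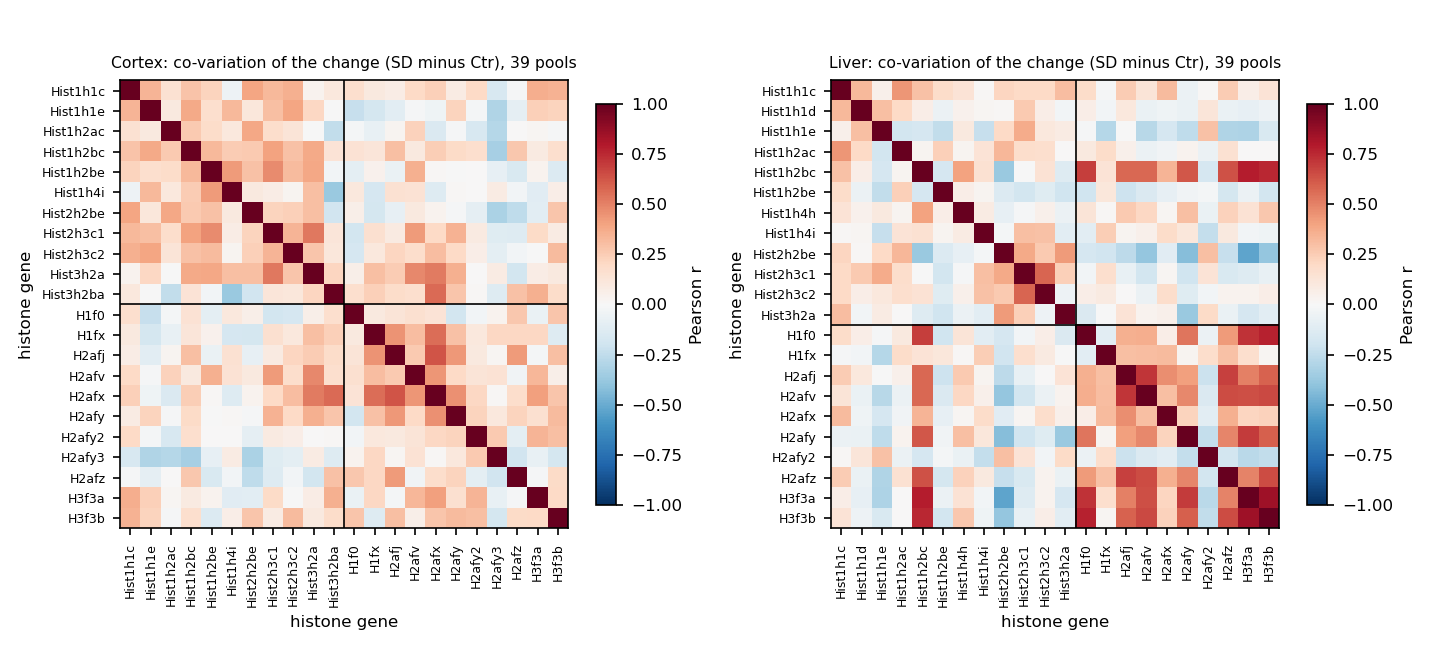
Pearson's r between the changes (SD minus Ctr, log2 CPM) of each pair of histone genes over 39 lines, in cortex and liver. Clustered genes come first and a black line divides them from the variants. In liver 36 of 45 variant pairs have a positive r, H3f3a with H3f3b reaches 0.85, and H2afy2 is negative with 8 of the 9 other variants.

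Genes that make and process histone mRNA changed in both directions in cortex. Of 18 listed there, 8 rose, 6 fell and 4 did not pass the test, with a median change of 0.038. Among all cortex genes 33% rose and 35.4% fell. Lsm11, a part of the U7 particle that cuts histone mRNA after the stem-loop, rose by 0.57 ± 0.038 (adjusted p = 1.48e-23), and Eri1, an exonuclease that trims histone mRNA ends, by 0.40 ± 0.030 (9.40e-21), both in 39 of 39 lines. Slbp, which binds the stem-loop, fell by 0.22 (SE 0.023, adjusted p = 5.97e-14), and Srrt rose by 0.25. In liver 10 of 18 rose, 1 fell and 7 did not pass, with a median of 0.098, where 21.5% of all genes rose and 22.6% fell. Ncbp2, a subunit of the cap-binding complex, rose by 0.42 ± 0.031 (3.30e-20), Casp8ap2 by 0.29 and Ncbp1 by 0.14, and Zfp473 by 0.52 at 2.15 mean Ctr reads. Slbp stood at medians of 5.19 and 5.22 log2 CPM in liver (0.02 ± 0.028, adjusted p = 0.570).

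Histone chaperones and exchange factors did not move as a group. In cortex 10 of 22 listed rose and 6 fell, among them Chaf1a, a subunit of the assembly factor that works behind the replication fork, which fell by 0.63 (SE 0.048, adjusted p = 7.79e-21), and Asf1b, which fell by 0.34. Nasp, a chaperone of H1 and H3, rose by 0.37 ± 0.023 (1.64e-25), and Hjurp by 0.37. In liver 6 of 23 rose and 5 fell. The shares of all genes were 33% up and 35.4% down in cortex, and 21.5% and 22.6% in liver. Asf1b rose by 0.51 and Chaf1a fell by 0.35 there, while Ubn1 rose by 0.21 and Hjurp by 0.19.

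Genes of cell proliferation were read beside the clustered genes, since S phase is when these are classically made. In cortex 6 of 20 listed rose, 5 fell and 9 did not pass, and their summed level went from a median of 121.9 CPM (108.3 to 137.4) in Ctr to 112.6 (102.5 to 122.3) in SD. Ccnb2 rose by 0.69 and Top2a by 0.22, whereas Ccne2 fell by 0.44 and E2f1 by 0.41. In liver 4 of 25 rose, 3 fell and 18 did not pass, and the summed level was 423.2 (339.0 to 582.4) in Ctr and 448.0 (369.8 to 522.1) in SD. Ccne2 rose by 0.49 and Ccne1 by 0.32, whereas Mcm6 fell by 0.57 and Mcm3 by 0.39. These counts stand against 33% up and 35.4% down over all genes of cortex, and 21.5% and 22.6% in liver. The part of cell division in the rise of the clustered genes was not tested.

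Because clustered mRNAs can lack a poly(A) tail, small nucleolar and other small RNAs, which also lack one, were listed as a further comparison after the data had been seen. In cortex 6 of 20 rose and 2 fell with a median change of 0.042, against 33% and 35.4% of all genes. In liver none of 15 rose and 1 fell by limma with a median of -0.15, against 21.5% and 22.6%. At an unadjusted p under 0.05, 1 of the 15 (Rpph1) rose, also with voom weights. Mean Ctr reads of the 15 ran from 2.46 (Snord52) to 22.1 (Snora15), so a change could be missed. Whether reads on these genes came from RNA without a tail was not tested. The part of RNA without a poly(A) tail in the change of the histone genes was not tested.

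The defining markers of the tissues were present: neuronal markers summed to a median of 8278 CPM in cortex Ctr pools and hepatocyte markers to 1655 in liver Ctr pools. In cortex, 3 of 5 neuronal, 1 of 3 oligodendrocyte and 2 of 3 microglial markers fell and 1 of 3 astrocyte markers rose. Of all genes, 35.4% fell and 33% rose in cortex, and 22.6% and 21.5% in liver. In liver, all 6 B cell markers fell with a median change of -1.27. Their summed level was 7.57 to 35.5 CPM (median 15.3) in Ctr and 2.37 to 16.4 (median 6.24) in SD. T cell markers fell in 1 of 5 genes, and none of 5 hepatocyte, 4 Kupffer cell and 2 erythroid markers passed the test in limma. At an unadjusted p under 0.05 the count was 0, and 1 (Cd5l of Kupffer cells) with voom weights. The hepatocyte marker Alb had the highest read density of liver (1.78 reads per base), where differences may be compressed. A change of such markers could therefore be missed. Neither B cell nor Kupffer cell markers were listed in cortex. The part of changing cell numbers in the histone results was not tested.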

How the data were processed

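Cortex and liver of 43 sets of pools were measured by RNA-seq in Ctr and SD mice, 172 libraries in all, of which 39 pools per tissue and condition entered the tests. According to the methods, the authors prepared stranded poly(A) libraries from pooled RNA, mapped 100-base reads to mm9 with STAR, counted them per RefSeq gene with HTSeq by strand, removed genes of low mean count, scaled libraries with edgeR (TMM) and deposited log2 CPM values, 1 table per tissue and condition. Versions of these tools are not given in the sources used here, and the sources name no removal of duplicate reads. Fewer mice were pooled for BXD79, BXD85 and BXD101. Whole reads were recovered from the steps of the log2 CPM values (100% of values within 0.02 of a read) and gave depth, read density and voom input. Listed genes had mean reads down to 4.93 in cortex and 1.84 in liver, and 4 members in liver were under 10.

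SD was compared with Ctr by limma 3.58.1 in R 4.3.3 (eBayes with trend) on all listed genes of a tissue, with Benjamini-Hochberg adjustment and a threshold of 0.05, without a block. The study's methods name limma with voom weights, which was an alternative here because log2 CPM values were deposited. Pools of a line are the same inbred genotype: deviations of its Ctr and SD pools from their group means correlated at 0.299 to 0.712 in cortex and 0.169 to 0.648 in liver, above 0.1 in 39 of 39 lines, and 37 of 39 correlated best with their own line in each tissue. The line as a replicate block was an alternative, and its values stand beside results whose call it changed. Correlations over pools used 100000 permutations (two-sided, scipy 1.17.1, python 3.11.15). Pools stand for lines, so p-values measure the spread between pools. Fits were tested on simulated data. Gene models came from GENCODE vM1 on mm9, and promoters from RefSeq windows that matched 20 of 24 members.

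Alternatives were voom weights, the block, both together, median centring, a prior count of 5, a mean of at least 50 reads, other sets of pools and no variance trend. Added after seeing the data were subsets with at least 90% unique stretches or at least 10 Ctr reads and the removal of BXD56, BXD70 and BXD90. Named genes were those with a called change of at least 0.5, the most read members, those with the largest tissue differences and the fixed pairs, and in context lists up to 4 called genes with the largest change. The members and the lists were chosen with earlier results of these data known.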

Additional observations from a re-analysis of the deposited data

Results flagged for a closer look

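The SD response of 14 histone genes differed between the tissues by limma on within-line differences, liver minus cortex on the log2 scale. The difference was positive for Hist1h1e (1.14), Hist2h3c2 (0.54), Hist1h2ac (0.47), Hist3h2a (0.46), H2afx (0.30), H1f0 (0.22), Hist2h3c1 (0.22) and H2afz (0.21). It was negative for Hist1h2be (-0.48), H2afy2 (-0.35), Hist1h1c (-0.27), Hist1h2bc (-0.17), H2afv (-0.12) and H2afy (-0.11). Opposite signs of the SD change were seen for Hist1h1c, at 0.10 in cortex (not called) and -0.17 in liver (called), and for H2afy2, at 0.13 in cortex (called) and -0.22 in liver (not called, adjusted p = 0.0608).

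In the 4 BXD/TyJ lines, 1 line lay far from the other 3 (its gap over the whole range above Dixon's critical value) in 5 of 44 groups of values, where chance gives about 1 in 20. In cortex these were H2afj in BXD05 (-0.20), Hist2h2be in BXD05 (-0.21) and Hist1h1e in BXD29t (1.34). In liver they were Hist1h1e in BXD29 (3.68) and H3f3b in BXD32 (0.15).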

How the results depend on the processing

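No called result changed direction in any alternative. Of 143 values for the main comparisons, 128 stayed within the limits set for them, 14 moved and 1 passed the threshold newly. Of 513 values for single genes, 500 kept their call, 8 gained one and 5 lost it. With a mean of at least 50 reads, 4 of 6 clustered genes rose in cortex and 3 of 5 in liver, and 5 genes had a larger response in liver, since fewer genes were tested. With at least 90% unique stretches, 5 of 7 clustered genes rose in each tissue, and with at least 10 Ctr reads 4 of 6 rose in liver. The fall of Hist1h1c in liver was not called, so that 0 clustered genes fell, with median-centred libraries (adjusted p = 0.0631), in the 33 BXD/RwwJ lines (0.0788), without BXD79, BXD85 and BXD101 (0.0760) and without a variance trend (0.0526). The cause was not tested.

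With the line as replicate block, 1 variant fell in liver (H3f3b, -0.05), also with voom and replicate block (-0.05), and clustered genes numbered 10 up and 1 down in cortex and 11 up and 1 down in liver. The block changed no call other than those of Hist1h1c in cortex and of Hist2h2be and H3f3b in liver. With all 43 pools 1 variant fell in liver (H2afy2, -0.26, adjusted p = 0.0192), and without BXD56, BXD70 and BXD90 also 1 (H3f3b, -0.07, 0.0188). Without these 3 lines the changes of Hist1h2bc and Hist2h2be in liver correlated at r = -0.46. Line relations numbered 18, and 18 to 21 in the alternatives. Depth limits the liver genes most, where 6 of 12 clustered genes had fewer than 10 Ctr reads.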
